A study of Mus musculus with 6 samples.

Results

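Untreated primary mouse embryonic fibroblasts are described here by the transcript levels measured before any exposure to peroxide. The members are the 2 arrays whose titles give 0 h, out of 6 arrays in the series. The series asked how fibroblasts respond to oxidative stress, and its 4 arrays of cells treated with hydrogen peroxide were not used. Both untreated arrays carried total RNA, extracted with Trizol and labelled with the dye Cy3, from fibroblasts grown in DMEM with fetal calf serum. The cells have no transgene, deletion or drug in the labels. The strain, the age of the embryos, the passage number and whether embryos were pooled were not given in the sources used. By the series description the arrays came from independent experiments, and each was a one-colour Agilent array on a slide of its own (slides 1 and 2), so that replicate and slide cannot be told apart. The spread given below is therefore the spread between these 2 arrays, and with 1 group there is no contrast and no test.

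Embryonic fibroblasts are mesenchymal cells that attach to plastic and divide when minced embryos are placed in culture. They build the fibrous matrix of connective tissue from collagens and fibronectin, and they pull on that matrix through actin and myosin. They also carry a memory of the part of the body they came from in the form of positional transcription factors, and they are a standard cell for the study of oxidative damage and of the arrest of division that follows it.

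A gene's level is the log2 processed fluorescence of its brightest probe minus the 75th percentile of the array. A level of 0 is thus the brightness that 3 of every 4 spots do not exceed, and each unit is a factor of 2 in signal. Pairs of values give replicate 1 first and replicate 2 second. A gene was called above background where the authors' scanner software flagged its probe as well above background on both arrays. Probes differ in how strongly they bind, so a level describes a gene against the array and not against other genes. In a bulk sample, fewer cells of a type and less RNA per cell cannot be told apart.

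Of 27919 gene names with a value, 16376 were above background on both arrays, or 58.7%. Another 1877 names were above background on 1 array, of which 402 were in replicate 1 and 1475 in replicate 2, and 9666 were on neither. Among the 15708 names that are gene symbols 71.8% were above background on both arrays (11271), against 41.8% of the 12211 clone, Riken, predicted-locus and accession names. The share of symbols above the 75th percentile was 40.7%, and 6.52% had a mean level over 4. Symbols on the autosomes and on the X chromosome were above background in like shares, 72.1% of 15054 and 70.2% of 554. The share of 71.8% is the background against which every list below is read. The plot of list shares sets all 55 lists beside it.

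**Figure D1:**
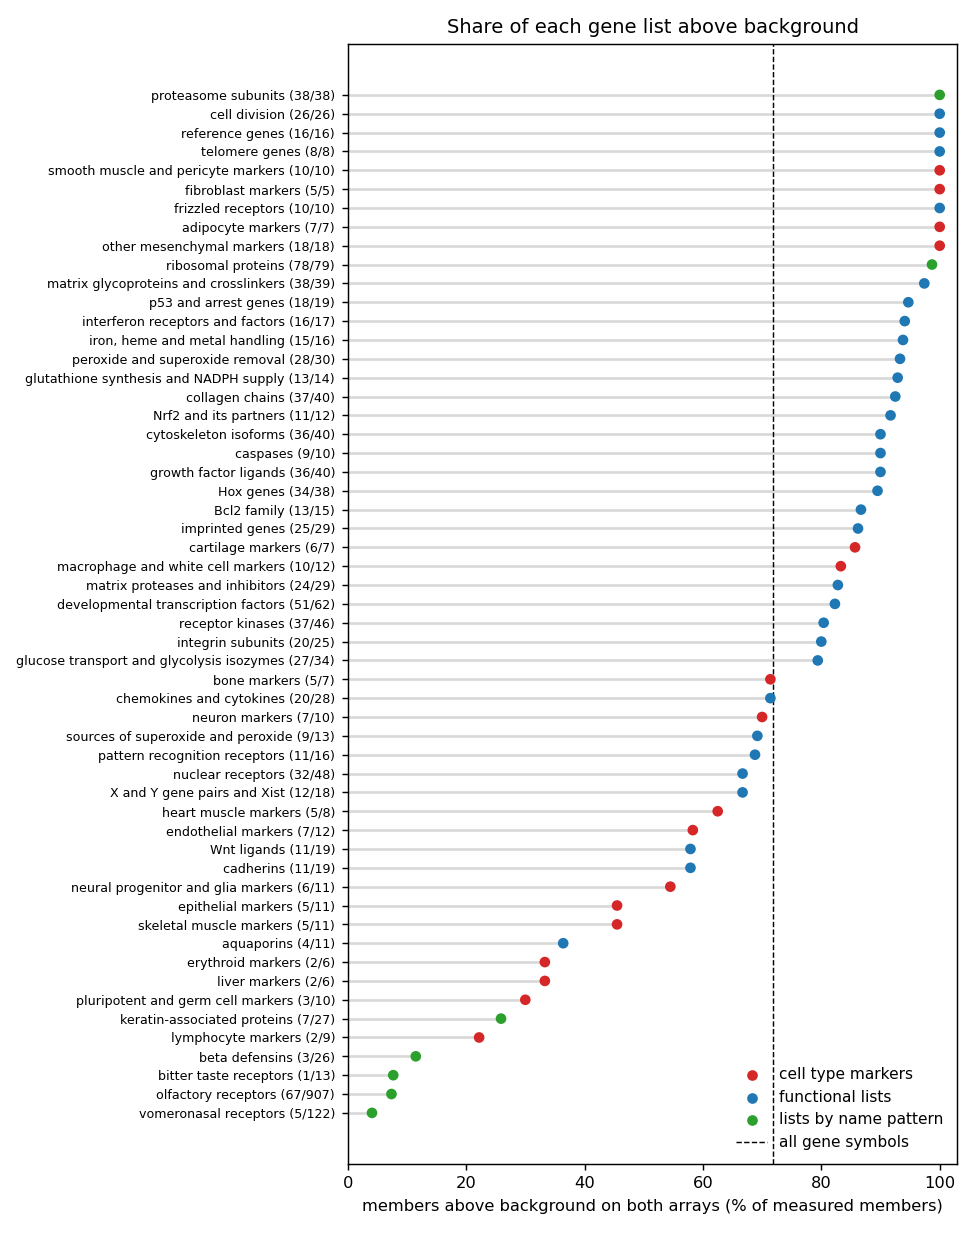
Each point gives the percentage of a list's measured members that were above background on both untreated arrays, with the counts in brackets after the list's name, and the dashed line marks all gene symbols (71.8%). Proteasome, cell division, fibroblast and other mesenchymal markers are complete, and the olfactory, bitter taste and vomeronasal receptors lie under 10%.

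The labelled cell type was checked against its markers first. All 5 fibroblast markers were above background on both arrays, and each had a level over 4. Col1a2 and Col1a1 encode the chains of type I collagen, the main protein of connective tissue. Col1a2 stood at 8.08 and 8.00 (mean 8.04, SD 0.06, n = 2) and Col1a1 at 7.19 and 7.11. Vim, the intermediate filament protein of mesenchymal cells, was at 6.86 and 6.82. Thy1, a surface antigen of fibroblasts, was at 6.41 and 6.34. Fn1, which encodes the fibronectin that links cells to matrix, was at 6.14 and 6.13. The arrays differed by at most 0.08 for these markers, and replicate 1 was the higher one for each. That direction is shared by bright genes at large. The median of replicate 2 minus replicate 1 was -0.09 over the 260 genes with a mean level over 6. A second probe of Vim stood at -6.13 and was not above background on both arrays, so the count falls to 4 of 5 when every probe of a gene must be detected.

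The 18 other mesenchymal markers were all above background, with a median level of 4.08 against 0.50 for all detected symbols. S100a4, a calcium-binding protein often used to mark fibroblasts, stood at 8.48 and 8.32. Periostin (Postn), a matrix protein of migrating mesenchyme, stood at 6.44 and 6.41. Decorin (Dcn), a proteoglycan that binds collagen fibrils, stood at 5.45 and 5.25. The receptors for platelet-derived growth factor are the classic surface markers of this lineage. Pdgfrb was at 5.34 and 5.35, and Pdgfra at 1.60 and 1.67. The dim end of the list held Fap, a protease of activated stroma, at -0.81 on both arrays, Nt5e at -3.52 and -3.42, and Tcf21, a transcription factor of visceral mesenchyme, at -3.53 and -3.85.

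Genes of contractile cells were above background as well. Smooth muscle and pericyte markers were above background in 10 of 10 cases. Smooth muscle actin (Acta2) stood at 8.24 and 8.15, transgelin (Tagln) at 7.64 and 7.51, and calponin (Cnn1) at 4.34 and 4.25. Those 3 genes also mark fibroblasts that have taken on a contractile form in culture. The 4 other probes of Acta2 were above background on both arrays and had levels between -4.98 and 6.08. The second probe of Tagln had a level of 5.25. The list's other members include genes of mature smooth muscle. Lmod1 was at 2.21 and 2.18 and Smtn at 2.09 and 1.93. Myh11, the smooth muscle myosin heavy chain, was at 0.24 and 0.30, and Myocd, the cofactor that drives the smooth muscle programme, was at -3.96 and -3.80.

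Transcripts of white blood cells were also measured. Of the 12 macrophage and white cell markers 10 were above background, or 83.3%, with a median level of -1.12 among them. Lyz2, the lysozyme of macrophages, stood at 4.11 and 3.99 and was the only one above the 75th percentile, while its second probe had a level of -2.41. The levels of Cd14, Tyrobp, Adgre1 and Csf1r, all of which act in macrophages, lay between -1.03 and -0.45 on both arrays. Cd68 was at -1.23 and -1.26, C1qa at -1.31 and -1.51, and Ptprc, the pan-leukocyte antigen CD45, at -2.78 and -2.88. Spi1, the master transcription factor of the myeloid lineage, was on neither array, and Itgam was above background on 1. The summed linear signal of the 12 markers, in units of the 75th percentile, was 21.1 and 19.6. Most of that sum came from the brightest probe of Lyz2, so it does not describe the list as a whole. With every probe required to be detected, 6 of the 12 remained. The part of such cells in other levels was not tested.

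Lymphocyte markers gave 2 of 9 above background, Lck and Cd3e, both at -2.34 or lower. The summed signal of all 9 was 0.526 and 0.399. Cd79a, a chain of the B cell receptor, stood at -2.61 in replicate 1 and at -8.14 in replicate 2, where it was not above background. Judged on replicate 2 alone, without replicate 1, the lymphocyte count is 4 rather than 2.

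Endothelial markers were above background in 7 of 12 cases, or 58.3%. Egfl7, a secreted factor of vessels, was at 0.61 and 0.43, Erg, an endothelial transcription factor, at -0.88 and -0.89, and Kdr, a receptor for vascular endothelial growth factor, at -1.97 and -1.78. Pecam1, Cdh5, Robo4 and Tie1, which hold endothelial junctions or act as endothelial receptors, were above background on neither array. The count was 3 of 12 when every probe had to be detected.

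Epithelial markers were above background in part. The simple-epithelium keratins were above background, with Krt19 at 0.84 and 0.62, Krt18 at 0.15 and 0.12, Krt7 at -1.35 and -1.41 and Krt8 at -1.61 and -1.77. Krt14, a keratin of the basal layer of skin, was above background at -2.25 and -2.62, which makes 5 of 11. Adhesion proteins and regulators of epithelium made up the rest of the list. Cdh1 (E-cadherin), Epcam, Cldn4, Esrp1 and Grhl2 were on neither array, and Krt5 was on 1.

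Markers of striated muscle were above background in part. Skeletal muscle markers gave 5 of 11 above background and heart markers 5 of 8. The detected heart markers had a median level of -2.61, and only cardiac actin, given next, lay above the 75th percentile. Of the other heart markers, 1 was above background on 1 array and 2 on neither. Skeletal actin (Acta1) stood at 1.79 and 2.50 and cardiac actin (Actc1) at 4.65 and 5.08. Replicate 2 was higher in both, by 0.71 and 0.43, where the SD of the difference over genes of like brightness was 0.121 between levels 2 and 4 and 0.125 between 4 and 6. Enteric smooth muscle actin (Actg2), chosen after its values were seen, stood at 4.18 and 4.55. The actin genes are near copies of one another in sequence, so the probe of one may also read another, and their separate levels are uncertain. Myod1, Myf5, Pax3 and Pax7, the transcription factors of muscle precursors, and Ckm, the muscle creatine kinase, were on neither array. Myog, a transcription factor of muscle differentiation, was above background at -3.53 and -3.50. The other detected members of the skeletal list were the embryonic myosin heavy chain Myh3 at -1.77 and -1.82, the troponin Tnnt3 at -2.96 and -3.09, and the acetylcholine receptor subunit Chrna1 at -3.23 and -3.11.

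Markers of other lineages were above background in part. Cartilage markers were above background in 6 of 7 cases, with Sox9, the transcription factor of cartilage, at 1.44 and 1.29 and Col11a1, a fibrillar collagen, at 3.56 and 3.35. Col2a1, the cartilage collagen, was at 0.96 and 1.71, a gap of 0.74. These 3 were the only cartilage markers above the 75th percentile. The dimmest detected member of that list had a mean level of -4.91, and 1 member was on neither array. Bone markers gave 5 of 7, 71.4%, a share near the background of all symbols. Osteopontin (Spp1) stood at 4.73 and 4.66 and Runx2, the factor of the bone lineage, at 0.24 and 0.35. Those 2 were the only bone markers above the 75th percentile, and the median of the 5 detected was -3.40. Ibsp and Dmp1 of mineralising bone were on neither array. All 7 adipocyte markers were above background with a median of -0.36. Lpl, which frees fatty acids from lipoproteins, stood at 2.76 and 2.66, Pparg, the regulator of fat cell formation, at 0.10 and 0.07, and Adipoq and Plin1 of mature fat cells between -3.93 and -3.65.

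Neuron markers gave 7 of 10 above background, a share of 70.0% that is near the background of 71.8%. Only 2 of those 10 had every probe detected. Glial markers gave 6 of 11, with the progenitor filament gene Nes at 1.22 and 1.16 and Gfap, Olig2 and Sox2 on neither array. Of 6 erythroid markers 2 were above background, with the globin gene Hba-a1 at -4.46 and -4.24. Of 6 liver markers 2 were above background. Albumin (Alb, named Alb1 on the array) was on neither array at -6.39 and -6.12, and Afp, the fetal serum protein, was at -2.64 and -2.56.

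Pluripotent and germ cell markers were above background in 3 of 10 cases, or 5 when replicate 1 was left out. Pou5f1, Zfp42 and Lin28a, which act in pluripotent cells, were on neither array. Nanog was on 1, at -6.58 and -4.41. Ddx4, a helicase of germ cells, stood at -2.27 and -2.26.

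**Figure D2:**
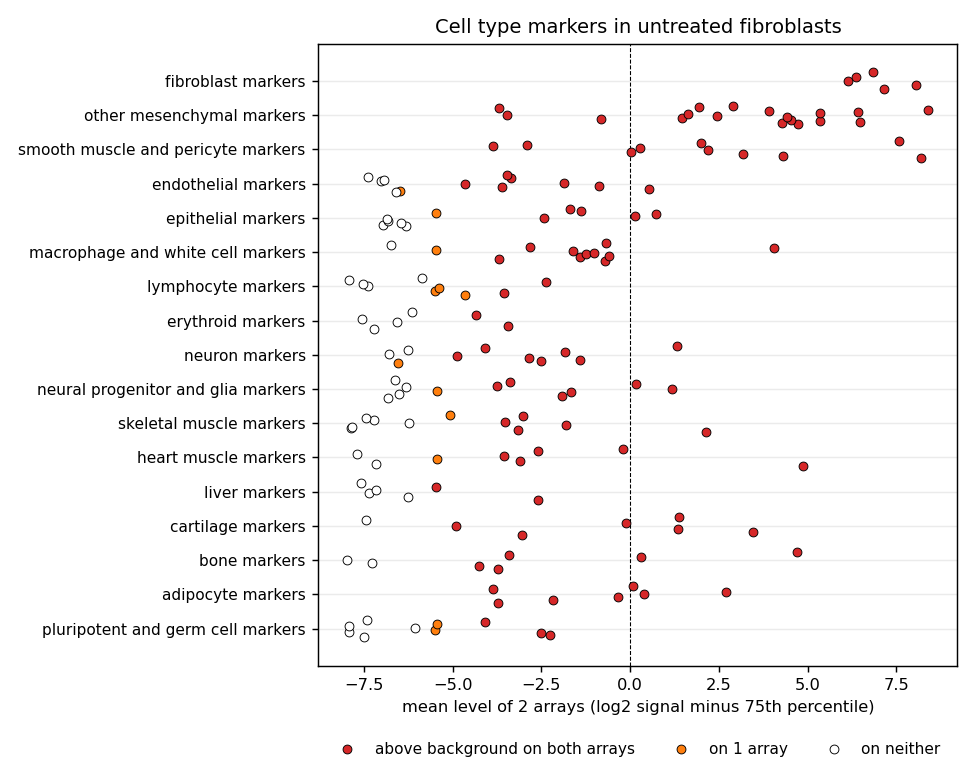
Each point is the mean level of one marker over the 2 untreated arrays (log2 signal minus the 75th percentile, dashed line at 0), grouped by the 17 cell type lists, with red for above background on both arrays, orange for 1 and white for neither. The 5 fibroblast markers lie between 6.13 and 8.04, and apart from the other mesenchymal list (9 members) and the smooth muscle list (3) no list holds more than 1 member above 4.

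Promoter sequence was set beside detection. For 12525 gene symbols the RefSeq table (GRCm38.p6) held 1 promoter, and the 250 bases before the transcription start were searched for CG dinucleotides and for short motifs on either strand. Clusters of CG mark the promoters of widely used genes, whereas TATAAA is the core of the TATA box found at many tightly regulated genes. The median count of CG was 16 in the 8302 genes above background on both arrays, 4 in the 715 above background on 1, and 3 in the 3508 above background on neither. At least 10 CG stood in 73.4% of the detected promoters and in 17.8% of those of genes on neither array, against 55.2% of all. TATAAA went the other way, with 7.26% of detected and 21.6% of undetected promoters, and 11.8% of all. GGGCGG, the core of the GC box, was in 59.9% and 19.8%, and in 46.8% of all; it contains a CG of its own and is not independent of that count. CCAAT was in 36.8% and 36.0%, and in 36.3% of all. The median share of G and C letters was 60% in detected promoters and 47.6% in those of genes on neither array. The TATAAA shares are therefore not independent of letter composition. Olfactory receptors made up 764 of the 12525 promoters and 300 of the 1481 with TATAAA. A match is a description of letters and not of a bound site.

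**Figure D3:**
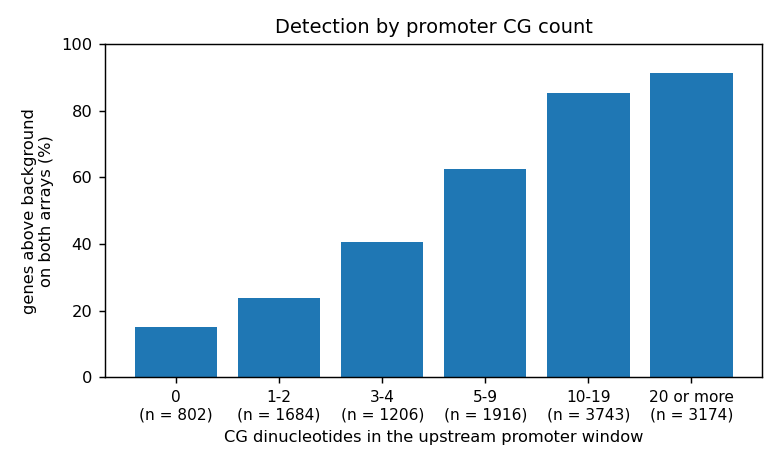
Bars give the percentage of genes above background on both untreated arrays, from 0, by the number of CG dinucleotides in the 250 bases before the start, with the number of genes under each bar. The share goes from 15.0% at 0 CG through 62.4% at 5 to 9 CG to 91.3% at 20 or more.

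Promoters of some lists were counted in the same way, with no test of a difference. In the cell division list 15 of 18 promoters held CCAAT (83.3%) against 36.3% of all promoters, and the median count of CG was 19. Olfactory receptor promoters had a median of 1 CG, and 39.3% held TATAAA. In the mesenchymal list, 4 of 10 promoters held TATAAA, and the median count of CG was 4.5. Ribosomal protein promoters held TATAAA in 2 of 49 cases. The 4 stretches printed here are the 150 bases before the start from the RefSeq promoter table of GRCm38.p6. They are single examples, and no olfactory receptor or ribosomal protein promoter is among them. They were chosen after the values were seen. Capitals mark CG, TATAAA and CCAAT or its reverse complement ATTGG.
Ccnb1, chr13:100786487-100786636, minus strand: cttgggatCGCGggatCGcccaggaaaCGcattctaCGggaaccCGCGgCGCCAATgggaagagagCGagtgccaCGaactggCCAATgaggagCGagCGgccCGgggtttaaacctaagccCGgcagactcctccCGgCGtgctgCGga
Vim, chr2:13574161-13574310, plus strand: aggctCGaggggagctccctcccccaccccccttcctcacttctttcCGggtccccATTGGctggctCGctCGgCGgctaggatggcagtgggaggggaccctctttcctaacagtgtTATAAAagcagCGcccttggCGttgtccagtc
Pdgfra, chr5:75152101-75152250, plus strand: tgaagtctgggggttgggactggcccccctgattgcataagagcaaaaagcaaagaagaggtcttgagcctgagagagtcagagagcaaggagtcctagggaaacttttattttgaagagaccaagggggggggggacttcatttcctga
Alb, chr5:90460720-90460869, plus strand: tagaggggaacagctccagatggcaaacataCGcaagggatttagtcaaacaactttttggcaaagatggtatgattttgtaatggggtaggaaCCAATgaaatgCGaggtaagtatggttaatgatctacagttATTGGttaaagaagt
Ccnb1, the cyclin that starts mitosis, has 17 CG and 2 CCAAT in this stretch and stood at 2.00 and 1.89. Vim has 7 CG and a TATAAA that begins 32 bases before the start. Pdgfra has 0 CG in the stretch and 4 in the 250 bases counted above, and it was above background on both arrays. Alb, with 2 CG and 2 CCAAT, was on neither array.

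Collagen chains, the fibrous part of the extracellular matrix, were above background in 37 of 40 cases, with a median of 1.16, 20 of them above the 75th percentile and 9 over 4. Besides type I collagen, Col3a1, its partner in soft tissue, stood at 6.54 and 6.43, and Col5a1, which nucleates fibrils, at 6.44 and 6.39. Col8a1, a short-chain collagen, was at 5.88 and 5.81. At the other end Col9a1, a cartilage collagen, stood at -4.80 and -5.02 and Col17a1, the collagen of epithelial anchoring, at a mean of -4.18 (SD 0.25, n = 2). Col4a3, a chain of specialised basement membranes, was on neither array, and Col10a1 and Col13a1 were on 1.

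Matrix glycoproteins and the enzymes that fold and crosslink collagen gave 38 of 39 above background with a median of 3.91. Serpinh1, the chaperone of collagen, stood at 7.22 on both arrays. Sparc, a collagen-binding glycoprotein, was at 6.90 and 6.72, Fbln2, which joins elastic fibres, at 6.43 and 6.32, and Thbs1 at 5.57 and 5.48. The laminin chains of epithelial basement membrane were at the dim end, with Lama3 at -3.99 and -2.76 and Lamb3 on neither array.

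Proteases that cut the matrix and their inhibitors were above background in 24 of 29 cases. The inhibitors Timp2 (6.66 and 6.65), Timp1 (5.96 and 5.77) and Timp3 (5.72 and 5.68) had levels over 4, as did the membrane-bound collagenase Mmp14 at 5.28 and 5.45. Adamts2, which trims procollagen, was at 3.96 and 3.92. Mmp13 was at -4.11 and -3.95, and Mmp7, Mmp8, Mmp9 and Mmp12, mostly proteases of epithelium and white cells, were on neither array.

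Integrins bind cells to the matrix, and cadherins bind cells to one another. Of 25 integrin subunits 20 were above background, with a median of -1.65 and with 8 above the 75th percentile. Itgb5, which pairs with the alpha-V chain to bind vitronectin, was at 5.67 and 5.68, Itga11, a collagen receptor of mesenchyme, at 5.12 and 5.11, and Itgb1, the shared beta chain of most matrix receptors, at 3.44 and 3.58. Itgax, a white cell subunit, and Itgb6, an epithelial one, were on neither array. Cadherins were above background in 11 of 19 cases, or 57.9%, with a median of -2.72, and in 6 when every probe had to be detected. Cdh11, the cadherin of mesenchyme, stood at 4.29 and 4.25, Cdh13 at 1.47 and 1.34, and N-cadherin (Cdh2) at -0.73 and -0.70.

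The cytoskeleton list had a median level of 5.09 over its 36 detected members of 40. Non-muscle myosin light chain (Myl6) stood at 7.99 and 7.92, beta-tubulin 5 (Tubb5) at 7.47 and 7.32, cytoplasmic gamma-actin (Actg1) at 7.17 and 7.22, and lamin A (Lmna) at 6.96 and 6.84. Filament genes of nerve and glia were at the dim end of the list. The neurofilament genes Nefm and Nefl lay between -2.92 and -2.73, and Gfap and Ina were on neither array. Lmnb2, a lamin of the B type, differed by 0.85 between arrays, at -1.94 and -1.09.

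Growth factor ligands were above background in 36 of 40 cases. Igf2, the fetal growth factor, stood at 6.83 and 6.96. Tgfb3, a ligand that drives matrix synthesis, was at 5.32 and 5.23, Inhba, the activin A subunit, at 4.58 and 4.49, Vegfb at 4.23 and 4.03, and Pdgfa at 3.48 and 3.38. Pdgfb, a second platelet-derived ligand, stood at -4.50 and -5.18. Of the epidermal factor family, Egf stood at -4.38 and -4.11, Tgfa was above background on 1 array, and Areg and Btc were on neither. The list holds further members of that family that are not named here, so these values do not describe the family as a whole.

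Their receptors were above background in 37 of 46 cases, or in 24 when every probe had to be detected. Besides Pdgfrb, the collagen receptor Ddr2 stood at 4.51 and 4.52 and Tgfbr2, which binds transforming growth factor beta, at 4.09 and 3.97. A second probe of Tgfbr2 had a level of -7.29 and was not above background on both arrays. Flt1, a receptor of vascular endothelial growth factor, was at 3.12 on both arrays. Met, the receptor of hepatocyte growth factor, was at -4.46 and -4.33. Insr, the insulin receptor, was above background on 1 array, and 8 receptors, among them Ret, Alk and Musk, were on neither.

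The Wnt pathway was measured through its ligands and the frizzled receptors that bind them. All 10 frizzled receptors were above background, with Fzd2 at 3.89 and 3.80 and Fzd1 at 2.95 on both arrays. Ligands were above background in 11 of 19 cases, or 57.9%, and only Wnt2 lay above the 75th percentile, at 1.05 and 1.12. Wnt5a, which acts outside the beta-catenin route, was at -0.90 and -0.93. Wnt1, Wnt3, Wnt3a and Wnt7a were among the 7 on neither array.

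Positional identity was read from the Hox genes, whose proteins give cells their place along the body axis and whose number within a cluster follows that axis. Of 38 Hox genes measured 34 were above background, or 89.5%, with a median level of -2.04 and with 10 above the 75th percentile. Hoxb9 stood at 1.72 and 1.67, Hoxc9 at 1.64 and 1.66, Hoxa7 at 1.36 and 1.47, Hoxb6 at 1.28 and 1.11, and Hoxb2 at 1.16 and 1.20. Except for Hoxb2, the 10 above the 75th percentile belong to paralog groups 6 to 11. The D cluster had 7 of 9 members above background and 0 above the 75th percentile, while the A cluster had 11 of 11 and 4, the B cluster 9 of 10 and 4, and the C cluster 7 of 8 and 2. Hoxb1 and Hoxd1 at the head end of their clusters and Hoxc13 and Hoxd12 near the tail end were on neither array. Replicates differed by 1.61 for Hoxb8, at -3.42 and -5.03, and by more for Hoxc12, at -3.04 and -4.82, so the place of these among the dim members is not settled. Other dim members lay close on both arrays, such as Hoxa13 at -4.25 and -4.27 and Hoxd11 at -4.27 and -4.22. These genes were chosen after their values were seen.

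**Figure D4:**
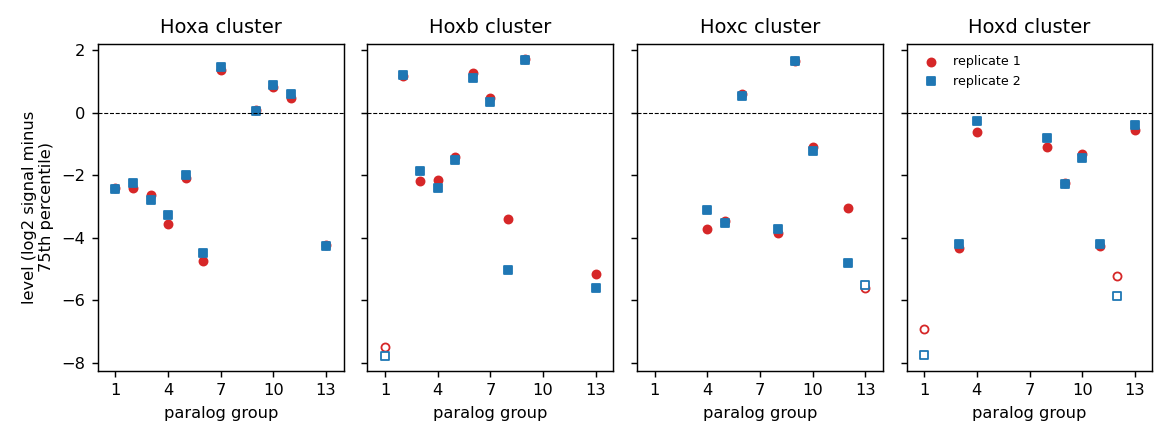
Points give the level of each Hox gene in replicate 1 (circles) and replicate 2 (squares) by paralog group, one panel per cluster, with open symbols for genes above background on neither array and the dashed line at the 75th percentile. Members above the line lie mostly at paralog groups 6 to 11 in clusters A, B and C, and no member of cluster D lies above it.

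Other developmental transcription factors were above background in 51 of 62 cases, with a median of -1.23. Snai2, which represses epithelial genes, stood at 4.20 and 4.18 and was the only one over 4. Meis2, a cofactor of Hox proteins, was at 2.75 on both arrays. Pitx1, a hindlimb factor, stood at 2.21 and 2.18, Tbx15 at 1.96 and 1.92, and Zeb1, another repressor of epithelial genes, at 1.87 and 1.89. Tbx4, the hindlimb T-box gene, was at -4.67 and -5.11, and Pax3, Pax6 and Pax8 were on neither array.

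Nuclear receptors gave 32 of 48 above background, or 66.7%, a share somewhat under the background. Nr4a1, an immediate early gene, stood at 4.40 and 4.34, Nr2f6 at 3.53 and 3.39, and the retinoid partner Rxra at 2.25 and 2.57. The glucocorticoid receptor (Nr3c1) was at 1.75 and 1.70. The progesterone receptor (Pgr), the mineralocorticoid receptor (Nr3c2) and the second oestrogen receptor (Esr2) were on neither array.

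Because the study went on to expose these cells to peroxide, the genes that handle it have a baseline of interest. Of 30 genes for removal of peroxide and superoxide 28 were above background, 25 of them above the 75th percentile, with a median of 3.1. Sod1, the cytosolic superoxide dismutase, stood at 6.22 and 6.07, and Gpx1, a glutathione peroxidase, at 6.22 and 6.01. The peroxiredoxins Prdx2 and Prdx1, which reduce peroxide through thiols, were at 5.95 and 5.83 and at 5.27 and 5.25. Gpx4, which acts on lipid peroxides, stood at 5.27 and 5.17. Catalase (Cat), chosen after its values were seen, was at 0.98 and 1.06. Isoforms made mainly by other tissues were dim or absent from the detected set, with the intestinal Gpx2 at -3.42 and -3.32, the secreted Sod3 at -4.72 and -4.73, and the epididymal Gpx5 and the olfactory Gpx6 on neither array.

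The supply of reducing power behind these enzymes was also above background. Glutathione synthesis and NADPH supply gave 13 of 14, with the pentose phosphate enzymes Tkt at 5.55 and 5.51 and Taldo1 at 4.98 and 5.05. The cystine transporter of the list has a heavy chain, Slc3a2, at 5.32 and 5.23 and a light chain, Slc7a11, at -1.57 and -1.52. Glutamate-cysteine ligase, the first step of glutathione synthesis, has a catalytic subunit, Gclc, at 1.07 and 1.05 and a modifier, Gclm, at -1.97 and -1.75. Ggt1, which breaks glutathione down outside the cell, was on neither array.

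Regulators of the antioxidant response were present at rest. Nfe2l2, which encodes Nrf2, stood at 3.08 and 3.07, and Keap1, which marks Nrf2 for degradation, at 3.29 and 3.21. Cul3 and Rbx1, the ligase that Keap1 recruits, were at 2.38 and 2.42 and at 4.97 and 4.92. The competing repressor Bach1 was at 0.42 and 0.23. Nfe2, the blood-specific relative, was above background on 1 array, and the other 11 of the 12 genes were on both.

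Iron and metal genes were above background in 15 of 16 cases. The ferritin chains Fth1 (6.81 and 7.03) and Ftl1 (6.58 and 6.43) store iron, and replicate 2 was the higher for Fth1 and the lower for Ftl1. Metallothionein Mt2, which binds zinc and copper, stood at 5.71 and 5.59, Mt1 at 4.56 and 4.28, and heme oxygenase (Hmox1) at 3.80 and 3.70. Hamp, the iron hormone of the liver, was on neither array. Enzymes that make superoxide or peroxide gave 9 of 13, near the background at 69.2%, and only Cyba, a subunit shared by several oxidases, lay above the 75th percentile at 1.48 and 1.35. Its partner Nox4 was at -1.11 and -1.24, while Nox1 and Nox3 were on neither array and Cybb, the white cell oxidase, was on 1. Of 11 aquaporins, some of which pass peroxide, 4 were above background, with Aqp1 at 1.96 and 2.15 and Aqp5 at 2.01 and 1.84. Aqp3 and Aqp8 were above background on 1 array.

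All 26 cell division genes were above background, with a median of 3.22. The D-type cyclin Ccnd2 stood at 5.72 and 5.58, the helicase subunits Mcm6, Mcm4 and Mcm7 at 5.54 and 5.44, at 4.71 and 4.64 and at 4.26 and 4.18, and the replication clamp Pcna at 4.86 and 4.79. The proliferation antigen gene Mki67, chosen after its values were seen, was at 4.24 and 4.19. At the dim end Cdk2 stood at -2.83 and -2.71 and Ccna1, the germ line cyclin, at -5.18 and -5.44.

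Genes that hold division back were above background beside them. Of 19 p53 and arrest genes 18 were above background. Gadd45g, a stress-response gene, stood at 5.64 and 5.57. The inhibitors of cyclin-dependent kinases included Cdkn1c at 4.36 and 4.22, Cdkn2b at 3.87 and 3.88 and Cdkn1a, a target of p53, at 2.44 and 2.31. Cdkn2a, whose products build up as embryonic fibroblasts age in culture, was at -1.58 and -1.63, and Trp53 itself was at 0.02 and -0.18. Trp63, the epithelial relative of p53, was above background on 1 array, at -7.58 and -3.03. All 8 telomere genes were above background, with Tert, the catalytic subunit of telomerase, at -2.65 and -2.60. With every probe required to be detected, 5 of the 8 remained.

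Cell death genes were in place at rest. The Bcl2 family gave 13 of 15, with the killers Bax at 3.75 and 3.67, Bok at 3.48 and 3.39 and Bbc3, the p53 target also called Puma, at 3.01 and 2.91, and with the protector Mcl1 at 3.08 and 3.12. Bik and Hrk were on neither array. Caspases gave 9 of 10, with the initiator Casp2 at 2.75 and 2.70 and the skin caspase Casp14 on neither array.

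Transcripts of immune signalling genes were counted next. Chemokines and cytokines were above background in 20 of 28 cases, 71.4%, a share near the background. Ccl2, which draws monocytes, stood at 4.71 and 4.64, Cxcl12, which holds blood stem cells, at 4.19 and 4.17, and Csf1, the macrophage growth factor, at 4.13 and 4.08. Il1a, Il1b, Csf2, Csf3, Cxcl2 and Cxcl13 were on neither array, and Tnf was on 1. Interferon receptors and factors gave 16 of 17, with the kinase Jak1 at 4.19 and 4.14, Ifngr1 at 3.31 and 3.33 and Irf3 at 3.26 and 3.06, and Irf4 of lymphocytes on neither array. Pattern recognition receptors gave 11 of 16, 68.8%, also near the background. The peptidoglycan sensor Nod1 stood at 1.52 and 1.45, and Tlr1, Tlr8, Aim2 and Nod2 were on neither array.

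Glucose metabolism was split by isozyme. Of 34 genes 27 were above background. Aldoa stood at 7.80 and 7.62, Gapdh (named MGC68323 on the array) at 6.50 and 6.30 and Ldha at 6.33 and 6.35. Among the 7 on neither array were the liver forms Slc2a2 and Pklr and the sperm forms Gapdhs, Pgk2 and Ldhc.

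Imprinted genes, which are read from 1 parental copy and many of which act in fetal growth, were above background in 25 of 29 cases, with 10 over 4. Besides Igf2, the noncoding RNA H19 stood at 6.43 and 6.30, Dlk1, which restrains fat cell formation, at 6.22 and 6.28, the growth restrainer Grb10 at 5.98 and 5.91, and the noncoding RNA Meg3 at 5.39 and 5.27. Peg10 and Rasgrf1 were on neither array, and Mkrn3 and Magel2 were on 1.

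Sex-linked genes of both kinds were above background. Of 14 symbols on the Y chromosome 4 were above background, and they are the list members Ddx3y at 0.73 and 0.75, Kdm5d at -1.72 and -1.67, Zfy1 at -4.61 and -4.28 and, named after its values were seen, Eif2s3y at 0.97 and 1.17. Xist, the RNA that silences an X chromosome in female cells, was above background on both arrays at -1.47 and -2.02, with its other probes at -7.70 or lower. Its antisense partner Tsix and the testis-determining gene Sry were on neither array.

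Ribosomes and proteasomes make and break down the proteins of every cell. Ribosomal proteins were above background in 78 of 79 cases with a median of 6.86, and the exception was the muscle form Rpl3l. Of the 20 brightest gene symbols 9 carry a ribosomal protein name (Rpl or Rps), among them Rps18 at 8.67 and 8.56 and Rpl7a at 8.61 and 8.49. Others in that set were Fau, which encodes a further ribosomal protein fused to a ubiquitin-like one, at 7.97 and 7.81, and Acta2, Col1a2, S100a4, the calcium-binding S100a6 at 8.20 and 8.03, Myl6 and the galectin Lgals1 at 8.01 and 7.89. All 38 proteasome subunits were above background, with a median of 4.01. Psmd3 of the regulatory cap stood at 6.42 and 6.30, while the immunoproteasome subunits Psmb8 and Psmb9 were at -0.43 and -0.57 and at -1.93 and -2.06. All 16 reference genes commonly used to scale expression were above background, among them Eef1a1, a translation elongation factor, at 6.90 and 6.82 and Tbp, the TATA-binding protein, at -1.64 and -1.58.

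Lists of genes known from other tissues gave low shares. Olfactory receptors were above background in 67 of 907 cases, 7.39%, and in another 136 on 1 array. Vomeronasal receptors gave 5 of 122, bitter taste receptors 1 of 13, beta defensins 3 of 26 and keratin-associated proteins 7 of 27. The olfactory count was 166 on replicate 2 alone, without replicate 1, and 104 on replicate 1 alone, without replicate 2. The vomeronasal count was 10 and 8 in the same way. Negative control spots, which match no mouse gene, were well above background for 3 of 153 in replicate 1 and 4 of 153 in replicate 2.

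Agreement between the arrays depended on brightness. Over the 16376 genes above background on both, Pearson's r across genes was 0.994 and Spearman's rho 0.995, as a description, since genes share the array and are not independent replicates. The median difference, replicate 2 minus replicate 1, was -0.02, and its SD over genes was 0.311. Within 0.2 lay 78.8% of the genes. The SD was 0.483 in the 2011 genes with a mean level up to -4 and 0.498 between -4 and -2. It was 0.222 between -2 and 0, 0.161 between 0 and 2, 0.121 between 2 and 4, 0.125 between 4 and 6, and 0.0882 in the 260 genes over 6. Of the 948 genes between 4 and 6 and the 260 over 6, 0 differed by over 1 between the arrays. Within an array, probes printed on 10 spots were compared where their unflagged spots were all well above background. The median SD over such spots was 0.0599 in replicate 1 (163 probes) and 0.0595 in replicate 2 (173 probes). The median absolute difference between arrays was 0.0970 over all 16376 genes. It is another measure over other genes and is not comparable with that SD.

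Altogether 300 genes (1.83%) differed by over 1, of which 170 were higher in replicate 2. The widest gaps among symbols were those of Atf7ip2, at -2.17 and -5.77, and of Il21r, a cytokine receptor of lymphocytes, at -4.88 and -1.50. All 20 symbols with the widest gaps had a brightest probe printed on 1 spot and a mean level under -2. Entpd1, which splits ATP outside the cell, differed by 3.36 on that probe and by -0.23 on its other probe, which was not above background on both arrays. Dennd3 differed by 2.84, and by -0.05 on its other probe, which was above background on both arrays. Of the 300 genes 15 had another probe above background on both arrays, and in 0 of these did such a detected probe differ by over 1 in the same direction.

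**Figure D5:**
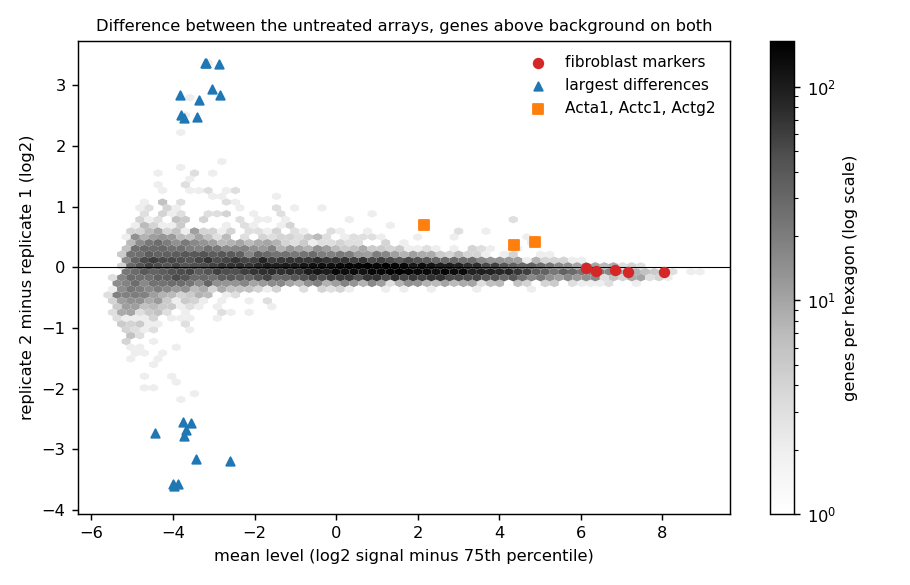
The vertical axis gives the level in replicate 2 minus that in replicate 1 and the horizontal axis the mean level (both log2) for the 16376 genes above background on both arrays, shaded by the number of genes per hexagon on a log scale. The 20 widest gaps among symbols (triangles) lie at mean levels under -2, the 5 fibroblast markers (circles) within 0.08 of the line, and the actins Acta1, Actc1 and Actg2 (squares) above it.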

How the data were processed

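Total RNA of untreated primary fibroblasts was measured on 2 one-colour arrays. Per the file headers, the authors scanned them with a G2505B scanner and extracted spot intensity with Feature Extraction 9.5.3.1 (protocol GE1-v5_95_Feb07, array design 014868). The deposited intensity used here is the software's background-corrected processed signal, and its flags per spot are other deposited values. The deposited value table held the same intensity within 0.0005, and its 4 columns of treated samples were not used.

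From the log2 processed signal of the 43379 non-control spots the 75th percentile of its array (826 and 883 before logarithms) was subtracted. Spots with an outlier flag (123 and 149) were left out, 245 probes printed on 10 spots entered as their average, and the brightest of a gene's probes stood for the gene. Well above background were 61.5% and 65.7% of spots, and 0 were saturated. The number of arrays limits the precision. List members were matched by name, accession or older symbol through the RefSeq genes of GRCm38.p6, 59 of them not under their current name. The genome build of the probe coordinates was not stated in any source used, and none is printed.

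Named genes are any member of a list of up to 12, in longer lists the 5 brightest and 5 dimmest detected members and those not above background on both arrays, the 20 brightest symbols, and the 10 widest gaps between arrays in each direction. The members and lists were chosen with earlier results of these data known. Alternatives changed the detection flag, the probe rule, the scaling, the background correction (normexp with an added constant, limma 3.58.1 in R 4.3.3) and the arrays kept. Calculations used Python 3.11.15 with numpy 2.4.6 and pandas 2.3.3, figures matplotlib 3.10.9, and R read files with the data.table package, version 1.17.8. The calculations were tested on simulated data. A few list members are counted but not reported here by name.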

Additional observations from a re-analysis of the deposited data

How the results depend on the processing

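No paired analysis was possible because only 1 group of 2 arrays was used. The number of genes above background, 16376, lay between 13746 (all probes of a gene required) and 20067 (the software's weaker flag for a positive and significant signal) under the alternatives run, 17851 without replicate 1 and 16778 without replicate 2. The 5 fibroblast markers stayed above background under each alternative except the rule requiring all probes, which left 4. The SD of the difference between arrays, 0.311, was 0.196 after normexp background correction and 0.729 with no filter on dim probes, and lay between 0.309 and 0.318 under the other scalings and with flagged spots kept. The value without a filter follows from its own construction, since undetected genes enter it. The normexp run added a constant to the signal of every spot. Such a constant narrows the log2 differences of dim spots by construction, and its part in the lower SD was not tested. Of the 55 lists, 13 changed their count by over 1.5 times when all probes were required, 9 with the weaker flag and 7 with the negative controls as threshold. The olfactory receptors went from 67 to 255 with the weaker flag. Levels after normexp, with the constant included, were higher by a median of 0.13, and by up to 4.20 for dim genes. Signal near background limits every count of undetected genes: a gene on neither array may be transcribed below what its probe can show. No list was tested against chance, and with 2 arrays no level has an error beyond their spread.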

Other observations

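Different probes of a gene often gave different levels. Of 8828 gene names with 2 or more probes, 4773 had every probe above background on both arrays, 2632 had some and 1423 had none. The median gap between the highest and the lowest probe of a gene was 2.74 log2 units, and it was over 4 for 3072 genes. Several of the brightest symbols rest on 1 of their probes. Pigt, a subunit of the enzyme that attaches membrane anchors to proteins, stood at 8.98 and 8.86, and its other probe at -3.43. Ptprz1, a phosphatase receptor of glial cells, stood at 8.67 and 8.60, and its other 3 probes lay between -7.97 and 0.34. Lrrc58 stood at 8.28 and 8.19, with its other probes between -2.84 and 2.31. Lars2, the mitochondrial leucine tRNA ligase, was at 8.90 and 8.81 on its only probe. Col1a2 itself had a second probe at -2.05, which was above background on both arrays.

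A few receptors of sensory tissue lay well above the rest of their lists. They were chosen after their values were seen. Olfr571 stood at 1.07 and 1.34 and was the only olfactory receptor above the 75th percentile. V1rc8, a vomeronasal receptor, stood at -2.03 and -1.76.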
